A study of Mus musculus with 23 samples.

Results

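The 10 genes described here carry out or control glucose production and glycogen turnover in the liver: *Pcx*, *Pck1*, *Fbp1*, *G6pc*, *Gys2*, *Pygl*, *Gcgr*, *Irs2*, *Foxo1* and *Ppargc1a*. They were taken by symbol from the deposited gene table, the choice of genes having been made with earlier results of these data known, and each of the 10 was found among its 48895 symbols. Poly(A) RNA was sequenced from 23 libraries of male BALB/c mice, which were 4–6 weeks old when the experiment was set up. The control liver group came from 5 sham-operated mice (C1, C4, C5, C6 and C7) whose cecal serosa received serum-free medium. The other 9 mice (M1, M2, M4, M5, M6, M7, M8, M10 and M12) received CT26 cells, a mouse colon carcinoma line, at the same site and gave 2 libraries each, from the liver, called pre-metastatic, and from the primary tumor. All mice were killed at 3 weeks, no animal carried a genetic change according to the labels, and the tumor groups are a model of a single cell line. The time of day and the feeding state at death are not given in the sources used here.

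Gluconeogenesis makes glucose from lactate, amino acids and glycerol. Pyruvate carboxylase (*Pcx*) and the cytosolic phosphoenolpyruvate carboxykinase (*Pck1*) carry pyruvate around the irreversible last step of glycolysis, fructose-1,6-bisphosphatase (*Fbp1*) reverses another such step, and the catalytic subunit of glucose-6-phosphatase (*G6pc*) frees the glucose that leaves the hepatocyte. Liver glycogen synthase (*Gys2*) and liver glycogen phosphorylase (*Pygl*) build and break down the glycogen store. In fasting, glucagon acts on its receptor (*Gcgr*) through cAMP, and the coactivator PGC-1α (*Ppargc1a*) and the transcription factor FoxO1 (*Foxo1*) raise transcription of *Pck1* and *G6pc*, whereas insulin, acting in liver partly through *Irs2*, opposes them.

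Expression of several of these genes is known to be set at the promoter, so the 250 bases before the RefSeq start site are shown for the 2 genes whose level differed between the livers (*G6pc* and *Pygl*) and for 2 genes known as targets of cAMP (*Pck1* and *Ppargc1a*). The sequences are those of RefSeq on GRCm38.p6, the patched form of the mm10 build of the deposited table, read 5′ to 3′ on the strand of the gene. The *G6pc* stretch lies at chr11:101367466-101367715 on the plus strand, *Pck1* at chr2:173152823-173153072 on the plus strand, *Ppargc1a* at chr5:51567726-51567975 on the minus strand and *Pygl* at chr12:70227684-70227933 on the minus strand. Capitals mark the 8-letter D-box match in *G6pc* and the short cAMP response motif, here on the reverse strand, in the other 3.
G6pc: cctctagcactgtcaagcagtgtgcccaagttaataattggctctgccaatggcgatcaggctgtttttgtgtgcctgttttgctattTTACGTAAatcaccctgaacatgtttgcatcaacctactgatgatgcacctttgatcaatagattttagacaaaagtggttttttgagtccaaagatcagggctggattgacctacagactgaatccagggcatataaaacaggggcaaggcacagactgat
Pck1: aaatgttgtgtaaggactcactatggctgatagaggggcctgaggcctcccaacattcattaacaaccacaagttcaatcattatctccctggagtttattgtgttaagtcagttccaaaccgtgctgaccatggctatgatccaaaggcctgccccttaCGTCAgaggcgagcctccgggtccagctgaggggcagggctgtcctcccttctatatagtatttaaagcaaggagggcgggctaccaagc
Ppargc1a: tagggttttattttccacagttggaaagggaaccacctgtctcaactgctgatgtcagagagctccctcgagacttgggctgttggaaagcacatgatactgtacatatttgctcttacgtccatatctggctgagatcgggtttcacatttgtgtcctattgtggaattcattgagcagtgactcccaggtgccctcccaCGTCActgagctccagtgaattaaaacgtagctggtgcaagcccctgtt
Pygl: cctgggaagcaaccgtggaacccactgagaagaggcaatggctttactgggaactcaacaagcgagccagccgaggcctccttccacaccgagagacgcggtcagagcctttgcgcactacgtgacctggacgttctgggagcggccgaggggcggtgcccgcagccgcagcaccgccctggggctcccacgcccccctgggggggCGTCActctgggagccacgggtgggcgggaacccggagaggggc

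Both strands of the 250 bases were searched in 10 promoters of 9 of the genes (*Pcx* has 2). The table used gave none for *Gys2*. The short cAMP response motif (TGACG) stood in the promoters of *Pck1* (positions -90 to -86 from the start), *Ppargc1a* (-49 to -45) and *Pygl* (-44 to -40), and in 17.8% of all 32851 promoters. The full cAMP response element (TGACGTCA, which contains it) was in none of the 10 and in 1.55% of all. The D-box (TTANGTAA), a motif bound by the clock output factor DBP, stood in the *G6pc* promoter at -162 to -155 and in 2.06% of all, and as TTACGTAA it reads the same on both strands. The FOXO motif (GTAAACA) and the glucocorticoid motif (ACANNNTGT) were in none of the 10, against 3.17% and 5.84% of all promoters. The E-box (CACGTG) was in *Pcx* and *Irs2* and in 6.02% of all, and the CCAAT box (CCAAT) was in 5 of the 9 genes (*Fbp1*, *Foxo1*, *G6pc*, *Irs2* and *Pcx*) and in 33.8% of all. These matches describe the letters only.

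Total counts were 51064615 to 60393702 in control liver, 44587556 to 79773163 in pre-metastatic liver and 47005276 to 70884436 in the tumors. The summed RPKM (counts per kilobase of gene, scaled to the total of the library) of 10 hepatocyte markers was 58416 to 73629 in control liver, 49939 to 83173 in pre-metastatic liver and 23.2 to 400 in the tumors, so both liver groups held liver tissue. Some libraries stood apart. The control liver C1 had a summed RPKM of 85.1 for 6 skeletal muscle markers, against 0.487 to 0.795 in the other 4 control livers and 0.268 to 24.8 in pre-metastatic liver. In the tumors the same sum was 482 in M4 and 110 in M7, against 0.938 to 2.07 in the others. The tumors of M10 and M12 held the most hepatocyte transcripts (235 and 400, against at most 108 in the other 7). The livers also fell into clock phases: an index of 6 clock genes (*Dbp*, *Per3* and *Ciart* against *Arntl*, *Npas2* and *Clock*) was 0.981 to 2.92 in 5 livers, called late phase here (C7, M1, M2, M10 and M12), and -2.35 to -0.102 in the 9 of early phase. Early phase held 4 control and 5 pre-metastatic livers.

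The first comparison asked how the livers of tumor-bearing mice differed from those of sham-operated mice. Of the 10 genes, *G6pc* and *Pygl* were higher in pre-metastatic liver and 8 did not pass the test (edgeR quasi-likelihood, Benjamini-Hochberg adjusted *p* under 0.05 over 16987 genes). Over all genes tested 31.0% passed, 17.7% higher and 13.3% lower. None of the 10 had groups that did not overlap in RPKM, against 10.9% of all genes. *Ppargc1a* passed with DESeq2 and by library totals in place of TMM scaling, where 35.2% and 30.5% of all genes passed. The median log2 fold change of the 10 genes was -0.05, against 0.01 for all genes.

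**Figure D1:**
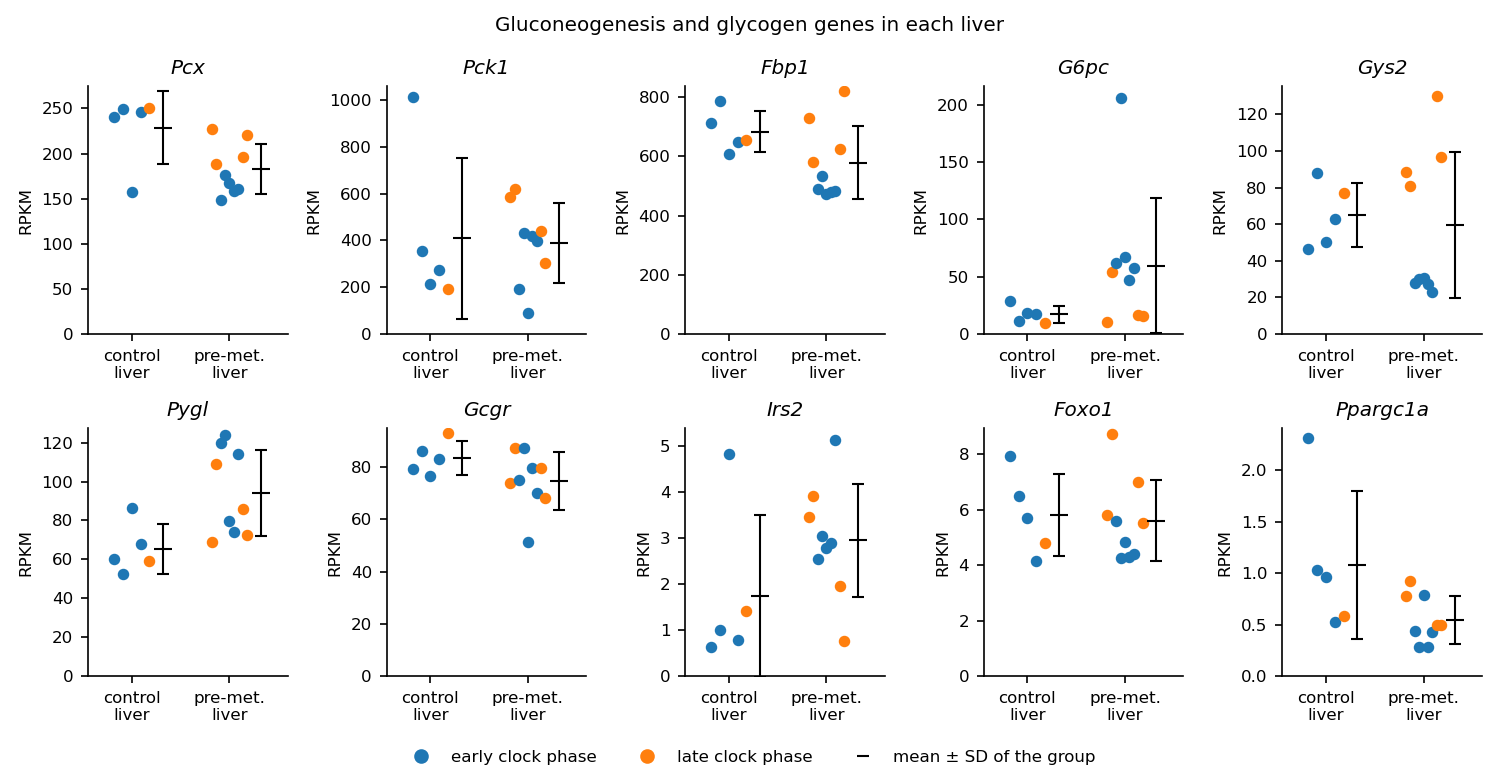
RPKM of the 10 genes in each liver (y axes from 0, a scale for each gene), with control liver and pre-metastatic liver (pre-met.) side by side, points colored by clock phase, and the mean and SD of each group as a black bar. *G6pc* reached 206 RPKM in 1 pre-metastatic liver, and the 5 early-phase pre-metastatic livers sat together at the bottom for *Gys2* (22.8 to 30.4) and *Fbp1* (472 to 535).

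Among the 4 gluconeogenic enzymes of the 10 genes, *G6pc* (chromosome 11, 101367716 to 101377903, plus strand) showed the largest difference. Its RPKM in control liver was 29 in C1, 11 in C4, 18.7 in C5, 17.5 in C6 and 9.88 in C7. In pre-metastatic liver it ranged from 10.5 to 206 with a median of 54.3. The 5 early-phase pre-metastatic livers and M2 lay at 47.2 or more, above every control liver, whereas M1, M10 and M12 lay at 10.5 to 16.2, within the range of the controls. This gave a log2 fold change of 1.78 ± 0.58 (SE; edgeR adjusted *p* = 0.0291, n = 5 and 9), a 3.43-fold difference. With each library left out in turn the value was 1.35 to 2.1, and the edgeR adjusted *p* was 0.0573 to 0.0717 without control C4, C5, C6 or C7. Limma gave an adjusted *p* of 0.0557. Within the early phase the groups did not overlap (11 to 29 against 47.2 to 206), which held for 20.9% of all genes, and the log2 fold change was 2.18 ± 0.42 (edgeR adjusted *p* = 0.00515, n = 4 and 5).

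*Pck1* (chromosome 2, 173153073 to 173159254, plus strand) had the highest RPKM of the 10 genes after *Fbp1* and spread widely in both groups. Its RPKM was 1013 in C1 and 194 to 354 in the other 4 control livers, and 89.4 to 622 in pre-metastatic liver with a median of 421. The groups differed by -0.06 ± 0.44 on the log2 scale (edgeR adjusted *p* = 0.927). The approximate 95% interval was -0.92 to 0.79, so a difference in either direction within it remains possible. The sign of this value near 0 was positive with limma (0.12) and without M4 (0.02) or M6 (0.06), and without C1, the liver with the skeletal muscle transcripts, the log2 fold change was 0.67 (edgeR adjusted *p* = 0.196). Among the controls C1 was also highest for *G6pc* (29 RPKM), *Ppargc1a* (2.31) and *Foxo1* (7.93) and lowest for *Irs2* (0.639) and *Gys2* (46.6). It lay inside the other controls for *Fbp1*, *Pcx*, *Pygl* and *Gcgr*. The part of muscle RNA in the *Pck1* value of C1 was not tested.

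*Fbp1* (chromosome 13, 62864753 to 62888298, minus strand) had 610 to 788 RPKM in control liver and 472 to 820 in pre-metastatic liver, medians 657 and 535. Over the 14 livers the log2 fold change was -0.15 ± 0.16 (edgeR adjusted *p* = 0.522). Within the early phase the groups did not overlap (610 to 788 against 472 to 535), and *Fbp1* was lower in pre-metastatic liver by that fit (log2 fold change -0.43 ± 0.12, edgeR adjusted *p* = 0.0293). In the same early-phase fit 25.3% of all genes passed, 14.5% higher and 10.8% lower.

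*Pcx* (chromosome 19, 4510472 to 4621752, plus strand), the entry enzyme of the pathway, had 241, 249, 157, 246 and 250 RPKM in C1, C4, C5, C6 and C7, so that C5 lay apart from the other controls. Pre-metastatic liver ranged from 148 to 227 with a median of 176. All 9 pre-metastatic livers lay under the 4 higher controls, and M4 alone lay under C5. The difference on the log2 scale was -0.24 ± 0.15 (edgeR adjusted *p* = 0.243), and -0.40 ± 0.16 in the early phase, where it did not pass either.

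The glycogen enzymes differed from one another. *Pygl* (chromosome 12, 70190815 to 70227683, minus strand) had 60.3, 52.7, 86.4, 67.8 and 59.4 RPKM in C1, C4, C5, C6 and C7, and 68.7 to 124 in pre-metastatic liver with a median of 85.8. Every pre-metastatic liver lay above 4 of the 5 controls, and C5 overlapped them. *Pygl* was 1.51-fold higher (log2 fold change 0.59 ± 0.15, edgeR adjusted *p* = 0.00654). It passed with each library left out in turn (edgeR adjusted *p* 0.00312 to 0.0232), in the early phase (0.66 ± 0.17) and with phase as a covariate (0.65 ± 0.14).

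*Gys2* (chromosome 6, 142422612 to 142473130, minus strand) had 46.6 to 88 RPKM in control liver. In pre-metastatic liver it split without a value in between: 22.8 to 30.4 in the 5 early-phase livers (M4, M5, M6, M7 and M8) and 81 to 130 in the 4 of late phase (M1, M2, M10 and M12). The means of these sets differed 3.59-fold. Such a gap between the late and early pre-metastatic livers was also seen for *Fbp1* (1.40-fold) and *Pcx* (1.28-fold), and in 5.22% of all genes, with no test made of it. Over the 14 livers the log2 fold change of *Gys2* was -0.03 ± 0.42 (edgeR adjusted *p* = 0.965). Within the early phase the groups did not overlap (46.6 to 88 against 22.8 to 30.4) and *Gys2* was lower in pre-metastatic liver (log2 fold change -1.09 ± 0.18, edgeR adjusted *p* = 0.00229). With phase as a covariate over all 14 livers it was also lower (-0.75 ± 0.25, edgeR adjusted *p* = 0.0326, with 30.9% of all genes called). In the late phase C7, the single control, had 77.3 RPKM, below the 4 pre-metastatic livers, and no test was possible there.

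**Figure D2:**
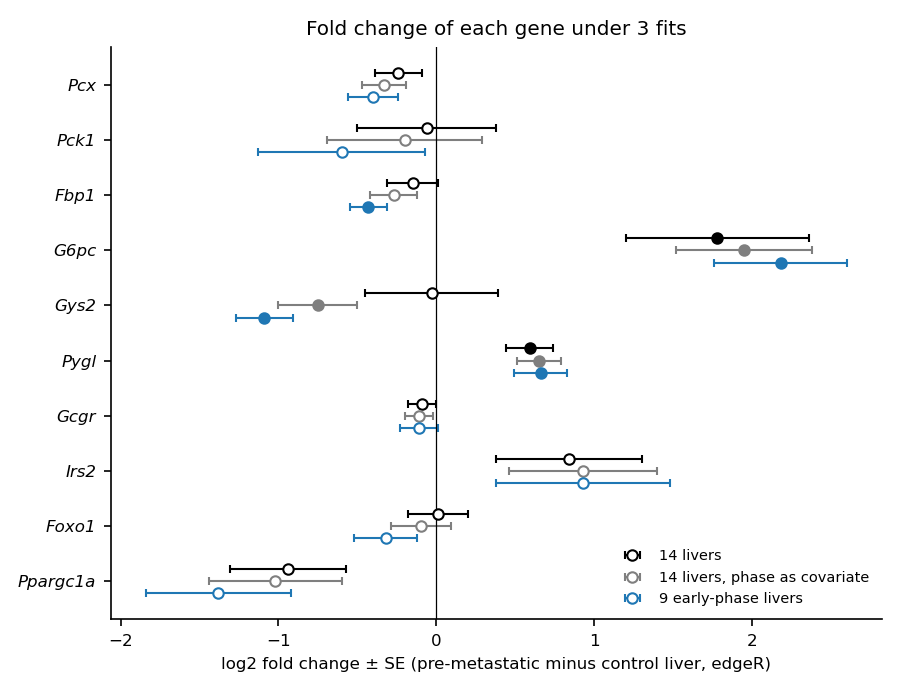
Log2 fold change ± SE (x axis, pre-metastatic minus control liver, edgeR) of each of the 10 genes over all 14 livers (black), with clock phase as a covariate (gray) and in the 9 early-phase livers (blue), filled where the adjusted *p* was under 0.05. *Gys2* moved from -0.03 to -1.09 and *Fbp1* from -0.15 to -0.43 in the early-phase fit, while *G6pc* and *Pygl* were filled under all 3.

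The receptors and regulators varied without passing the test. *Gcgr* (chromosome 11, 120529186 to 120538989, plus strand), the glucagon receptor, was the most even of the 10 in control liver (76.5 to 92.9 RPKM) and had 51.4 to 87.3 in pre-metastatic liver, where M6 lay apart at 51.4. The difference was -0.09 ± 0.09 on the log2 scale (edgeR adjusted *p* = 0.481), with an interval of -0.27 to 0.08. An antisense gene overlaps it (ENSMUSG00000084983.7, 17.5 RPKM in control liver), and reads of the 2 genes cannot be told apart without strand.

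*Irs2* (chromosome 8, 10986961 to 11008430, minus strand), an adaptor of the insulin receptor, had 0.639, 0.997, 4.83, 0.785 and 1.42 RPKM in C1, C4, C5, C6 and C7. In pre-metastatic liver it ranged from 0.766 to 5.13 with a median of 2.9. C5 lay above 8 of the 9 pre-metastatic livers, and 8 of the 9, all but M12, lay above the other 4 controls. Over all livers the log2 fold change was 0.84 ± 0.46 (edgeR adjusted *p* = 0.178), and without C5 it was 1.69 (edgeR adjusted *p* = 0.00396).

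*Foxo1* (chromosome 3, 52268337 to 52350109, plus strand) had 4.14 to 7.93 RPKM in control liver and 4.25 to 8.71 in pre-metastatic liver (log2 fold change 0.01 ± 0.19, edgeR adjusted *p* = 0.965). The sign was negative by library totals (-0.06), in the early phase (-0.32) and with phase as a covariate (-0.10), none of which passed.

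*Ppargc1a* (chromosome 5, 51454249 to 52116058, minus strand) was the least expressed of the 10 in liver, with 2.31, 1.03, 0.96, 0.53 and 0.586 RPKM in C1, C4, C5, C6 and C7 and 0.282 to 0.922 in pre-metastatic liver. The 3 highest values were those of C1, C4 and C5, and the other 2 controls lay inside the pre-metastatic range. On the log2 scale the difference was -0.94 ± 0.37 (edgeR adjusted *p* = 0.066), and the gene passed with DESeq2 (adjusted *p* = 0.0352) and by library totals in edgeR (adjusted *p* = 0.0391). Without C1, the liver with the skeletal muscle transcripts, it was -0.40 (edgeR adjusted *p* = 0.392), and it passed without C6, C7, M2 or M6 (edgeR adjusted *p* 0.0405 to 0.0494). *Ppargc1a* is also expressed in skeletal muscle, and the part of that tissue in the value of C1 was not tested.

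The wider pathway was described with lists of known genes (the 10 genes included). Of 24 genes of gluconeogenesis and glucose release, 2 were higher and 9 lower in pre-metastatic liver, a share of 45.8% beside 31.0% over all genes, with a median log2 fold change of -0.30. Library totals in place of TMM moved these counts to 1 and 13. The mitochondrial pyruvate carrier subunits *Mpc1* (mean 39.1 RPKM in control and 21.1 in pre-metastatic liver, log2 fold change -0.80 ± 0.13) and *Mpc2* (246 and 147, -0.66 ± 0.13) and the triose-phosphate isomerase *Tpi1* (371 and 218, -0.69 ± 0.10) were lower with no overlap between the groups (edgeR adjusted *p* 0.000186 to 0.00189). These carry pyruvate to *Pcx* or serve both directions of the pathway. Chosen after their values were seen, the cytosolic aspartate aminotransferase *Got1* was also lower (376 and 42.6 RPKM, -3.01 ± 0.55, edgeR adjusted *p* = 0.00102) and the glucose transporter *Slc2a2*, through which glucose leaves the hepatocyte, was higher (47.5 and 85.5 RPKM, 0.94 ± 0.33, edgeR adjusted *p* = 0.043). *Slc2a2* did not pass in the early phase (edgeR adjusted *p* = 0.0731), by library totals (0.0599), with no count filter (0.0539), in a fit over all 23 libraries (0.155) or without C1, C4, C5, C6, M1, M2, M10 or M12 (0.0649 to 0.109).

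Of the 26 glycogen genes tested, 5 were higher and 4 lower, a share of 34.6% beside 31.0% over all genes. The branching enzyme *Gbe1* (13.7 and 23 RPKM, log2 fold change 0.81 ± 0.14), the primer protein glycogenin *Gyg* (2.15 and 3.5, 0.77 ± 0.14) and the brain phosphorylase *Pygb* (1.44 and 2.52, 0.90 ± 0.16) rose. The protein phosphatase subunit *Ppp1r3b*, which targets the phosphatase to glycogen in liver, fell (77.7 and 29.7 RPKM, -1.27 ± 0.29), as did the lysosomal glucosidase *Gaa* (39.5 and 21.5, -0.80 ± 0.12) and the muscle glycogen synthase *Gys1* (1.25 and 0.687, -0.77 ± 0.20). The edgeR adjusted *p* of the 6 genes was 0.000231 to 0.0095, and *Gys1* did not pass in the early phase (0.0732).

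Glucagon and cAMP signalling held 22 genes, of which 1 was higher and 1 lower, or 9.09% beside the same 31.0%. The lower gene was *Crtc2*, the CREB coactivator of the fasted liver (10.4 and 7.04 RPKM, log2 fold change -0.49 ± 0.08, edgeR adjusted *p* = 0.000395). Of 20 genes of insulin signalling, 7 passed, all higher, with a median of 0.27. This share of 35.0% was near the 31.0% of all genes, and by library totals, with 4 higher and 1 lower, it was 25.0% beside 30.5%. Among them *Socs3*, an inhibitor of cytokine and insulin signalling, rose from 9.17 to 20.7 RPKM (1.26 ± 0.21, edgeR adjusted *p* = 0.000492). *Igfbp1*, a gene held down by insulin and named after its values were seen, was also higher (3.62 and 17.9 RPKM, 2.37 ± 0.72, edgeR adjusted *p* = 0.0214), with an adjusted *p* of 0.0538 without C5.

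Of 21 regulators of gluconeogenic genes, 1 was higher and 4 lower, with a median of -0.24, and their share of 23.8% was below the 31.0% of all genes. The liver transcription factors *Foxa2* (32.3 and 12.1 RPKM, log2 fold change -1.32 ± 0.28, edgeR adjusted *p* = 0.0027) and *Hnf4a* (237 and 136, -0.70 ± 0.20, adjusted *p* = 0.0153) were among the lower genes and were named after their values were seen. *Hnf4a* had an adjusted *p* of 0.0544 without C5. Of 15 genes of the fasting and glucocorticoid response, 1 was higher and 4 lower (33.3%, near the share of all genes), with a median of -0.58. Tyrosine aminotransferase (*Tat*, 997 and 291 RPKM, -1.74 ± 0.26) fell with no overlap (edgeR adjusted *p* = 0.000241).

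The steps that oppose gluconeogenesis or feed sugar into lipid synthesis had 6 higher and 1 lower of 10 genes, with a median of 0.70. This share of 70.0%, beside 31.0% over all genes, fell to 5 of the 10 genes by library totals (4 higher and 1 lower) and 4 in the early phase (all higher), beside 30.5% and 25.3% of all genes. Liver pyruvate kinase (*Pklr*) rose from 17.1 to 114 RPKM (log2 fold change 2.86 ± 0.36), the lipogenic factor *Srebf1* from 11.5 to 45.7 (2.07 ± 0.27) and ketohexokinase (*Khk*) from 117 to 233 (1.09 ± 0.13), each with no overlap (edgeR adjusted *p* 5.32e-05 to 0.00011).

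**Figure D3:**
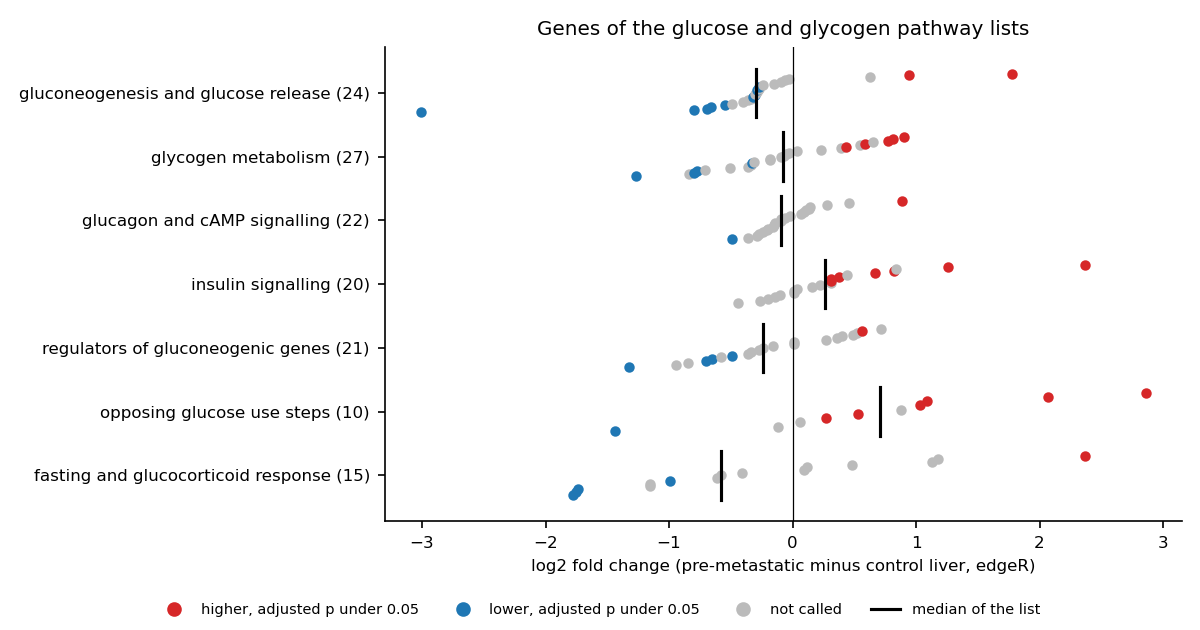
Log2 fold change (x axis, pre-metastatic minus control liver, edgeR) of each tested gene of 7 lists, with the number of listed genes in brackets, red where higher and blue where lower at an adjusted *p* under 0.05, and a bar at the median of the list. The medians ran from -0.58 for the fasting and glucocorticoid list to 0.70 for the opposing steps of glucose use.

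Markers of cell types were read from the same fit of the 14 livers, where 31.0% of all genes passed, 17.7% higher and 13.3% lower. Of 12 leukocyte markers 11 passed (91.7%), all higher in pre-metastatic liver (median log2 fold change 1.92), and their summed RPKM was 36.8 to 69.1 in control and 83.5 to 344 in pre-metastatic liver, with no marker at 0. Of 10 hepatocyte markers 1 was higher (*Tf*) and 2 were lower (*Cps1* and *Hnf4a*), a share of 30% near that of all genes. The lower ones numbered 4 by library totals and 3 in the early phase, where 30.5% and 25.3% of all genes passed. Of 7 fibroblast and stellate cell markers 3 were higher, or 42.9% (summed RPKM 72.3 to 111 in control and 50.8 to 171 in pre-metastatic liver), and of 6 endothelial markers 1 was higher, or 16.7% (13.8 to 32.8 and 11.4 to 44.9). Of 8 enterocyte markers 4 were tested, with 1 higher and 1 lower (56 to 316 and 15.6 to 94.5), and *Alpi* was at 0 counts in every liver. Of 6 adipocyte markers 1 of the 2 tested was lower (9.04 to 46.8 and 5.79 to 16.4), and of 6 pancreatic acinar markers the 1 tested was higher (6.65 to 8.5 and 5.52 to 40.2), with *Cpa1*, *Prss2*, *Pnlip* and *Cel* at 0 in control liver. Smooth muscle markers (5 tested) and skeletal muscle markers (1 tested) did not pass. In bulk tissue fewer cells of a type and less RNA per cell cannot be told apart, and the part of these cells in the values above was not tested.

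The second comparison set each tumor beside liver. All 10 genes passed the test against the pre-metastatic livers, 9 lower and *Irs2* higher in the tumor, where 84.3% of 17827 genes passed, 43.8% higher and 40.5% lower. Of the 10, 8 had groups that did not overlap, against 70.2% of all genes. The median log2 fold change of the 10 was -9.00, against 0.09 for all genes. Library totals in place of TMM raised the median of all genes to 1.27 and the share of higher calls from 51.9% to 76.6%. Each of the 10 genes kept its direction and passed under that scaling, where 15956 of the 17827 genes passed. The same held in a fit with the mouse as a block, where 14929 passed. Against control liver, which shares the tumor libraries with this comparison, the 10 genes gave the same counts, 9 lower and 1 higher, with 82.3% of 19320 genes called, 44.2% higher and 38.1% lower. There 8 of the 10 did not overlap, against 73.5% of all genes. *G6pc*, *Gys2* and *Gcgr* passed the count filter of both comparisons only because of the livers, so their lower calls were built into the test. The filter against the pre-metastatic livers asked for 10 counts in 9 libraries. *Pck1* (4 counts in the tumor of M4) and *Fbp1* (9 there) also passed that filter only because of the livers. Their lower calls in that comparison were thus built in as well.

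*Pck1*, *Fbp1*, *G6pc*, *Gys2* and *Gcgr* were close to absent from the tumors. The highest tumor value was 1.77 RPKM for *Pck1*, 2.6 for *Fbp1*, 0.244 for *G6pc*, 0.213 for *Gys2* and 0.279 for *Gcgr*, each in M12. The second highest was that of M10 for each of the 5. In the other 7 tumors *G6pc* had 0 to 2 counts, *Gys2* 0 to 3, *Gcgr* 0 to 4, *Pck1* 4 to 30 and *Fbp1* 9 to 54. The log2 fold changes against the pre-metastatic livers were -11.11 ± 0.97 for *Pck1*, -10.98 ± 0.83 for *Fbp1*, -11.62 ± 0.82 for *G6pc*, -11.55 ± 0.83 for *Gys2* and -11.37 ± 0.69 for *Gcgr*. No adjusted *p* is given for these 5 genes, since they passed the count filter of this comparison only because of the livers.

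As a share of the same mouse's liver RPKM, the 7 tumors had 0.0107 to 0.0455% for *Pck1* and 0.0127 to 0.0867% for *Fbp1*, and M10 and M12 had 0.229 to 0.581% and 0.261 to 0.317%. Albumin (*Alb*), a protein made by hepatocytes, gave shares of 0.00841 to 0.0727% in the 7 tumors and 0.254 to 0.419% in M10 and M12. Of the 10 hepatocyte markers, 8 were highest in M10 and M12, and *Tf* (0.957%) and *Hnf4a* (0.541%) were highest in M2. The shares of *Gcgr* (0 to 0.0292% and 0.24 to 0.411%) and *Gys2* (0 to 0.0216% and 0.101 to 0.221%) had the same order. *G6pc* stood at 1.57% in M12, above *Alb* there, on 30 counts. Most hepatocyte markers thus moved with these 5 genes among the tumors, and their part in the tumor values was not tested. Without M10 and M12 the log2 fold changes were -13.13 for *Pck1* and -12.58 for *Fbp1*.

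**Figure D4:**
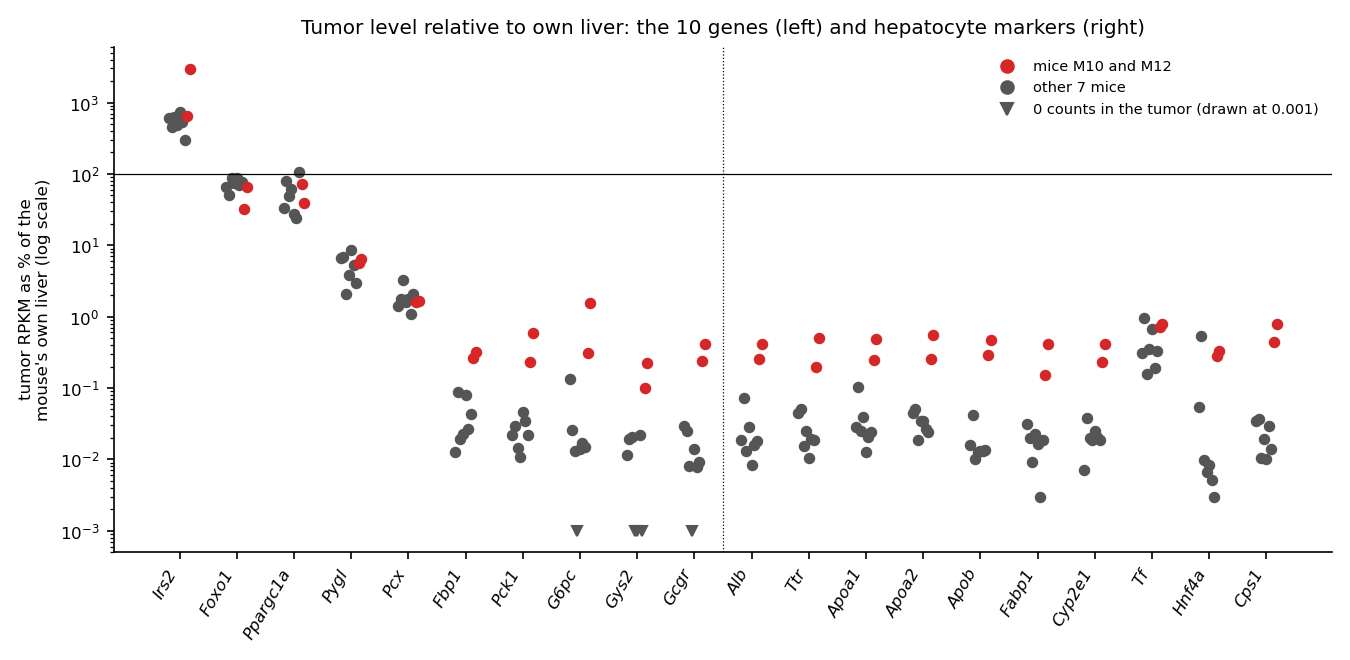
Tumor RPKM as a percentage of the RPKM of the same mouse's liver (y axis, log scale, line at 100) for the 10 genes on the left and 10 hepatocyte markers on the right, with 1 point per mouse, M10 and M12 in red and tumors with 0 counts drawn as triangles at 0.001. *Pck1*, *Fbp1*, *G6pc*, *Gys2* and *Gcgr* lay with the hepatocyte markers, *Pcx* and *Pygl* lay between 1.1 and 8.55%, and *Irs2* lay above 100% in all 9 mice.

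*Pcx* and *Pygl* had a level in the tumors beyond that of the hepatocyte markers. *Pcx* had 1.74 to 4.82 RPKM, 1.1 to 3.26% of the same mouse's liver, with M10 and M12 (1.6 to 1.66%) inside the range of the others (log2 fold change -7.01 ± 0.20, edgeR adjusted *p* = 1.83e-16). *Lrfn4*, on the opposite strand within *Pcx*, had a mean of 14.6 RPKM in tumors and 0.675 in pre-metastatic liver, and its reads cannot be told apart from those of *Pcx* where they overlap. *Pygl* had 2.47 to 7.33 RPKM, 2.06 to 8.55% of liver (-5.48 ± 0.20, edgeR adjusted *p* = 4.27e-15).

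*Foxo1*, *Ppargc1a* and *Irs2* differed least between the tissues. *Foxo1* had 2.27 to 4.86 RPKM in the tumors, 32.5 to 87.6% of liver, with ranges that overlapped (log2 fold change -1.81 ± 0.15, edgeR adjusted *p* = 9.87e-10, and -0.62 by library totals). *Ppargc1a* had 0.0677 to 0.726 RPKM, 24 to 107% of liver, also overlapping (-2.08 ± 0.36, edgeR adjusted *p* = 2.6e-05, and -0.88 by library totals). *Irs2* had 12.5 to 22.5 RPKM, above every liver of either group, and was 301 to 2930% of the same mouse's liver (1.39 ± 0.23, edgeR adjusted *p* = 1.08e-05, and 2.56 by library totals). Against control liver the log2 fold changes of these 3 genes were -1.77, -2.99 and 2.25.

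Between the tumors and the livers of the same mice 84.3% of all genes passed, 43.8% higher and 40.5% lower in tumors. Of the pathway lists, 9 of 23 gluconeogenesis genes were higher and 14 lower in tumors, 100% of those tested. The higher ones included the mitochondrial carboxykinase *Pck2* (0.837 and 25 RPKM, log2 fold change 3.70 ± 0.21) and the glycolytic enzymes *Eno1* (107 and 1022, 2.07 ± 0.15) and *Pgk1* (127 and 785, 1.45 ± 0.16), and the lower ones *Slc2a2* (85.5 and 0.0674 RPKM, -11.39 ± 0.73) and *Gpd1* (106 and 0.722, -8.38 ± 0.24). Of 27 glycogen genes 8 were higher and 15 lower, and this share of 85.2% was near that of all genes. Library totals turned these counts to 13 and 9, where 12222 of all genes were higher and 3734 lower. The glycogen-targeting subunits *Ppp1r3b* (-4.98 ± 0.33) and *Ppp1r3c* (-7.58 ± 0.71) were lower and *Gys1* (3.47 ± 0.18) and *Pygb* (2.36 ± 0.12) higher under both scalings. In the list of regulators the liver factors *Foxa2* (-11.19 ± 0.44) and *Hnf4a* (-10.78 ± 0.99) fell, and *Creb1*, the cAMP response factor, rose (1.17 ± 0.07), in both scalings. Apart from *Slc2a2*, *Foxa2* and *Hnf4a*, all these had an edgeR adjusted *p* of at most 7.15e-08. *Slc2a2*, *Foxa2* and *Hnf4a* passed the count filter only because of the livers, so their lower calls were built into the test.

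The share of the liver isozyme in the summed RPKM of its family was then taken within each library, so that no scaling between libraries enters. In both liver groups the liver form made nearly all of the message for *Pck1* (98.7 to 100% of *Pck1* and *Pck2*), *Fbp1* (99.9 to 100% of *Fbp1* and *Fbp2*), *Gys2* (96.7 to 99.5% of *Gys1* and *Gys2*) and *Pygl* (94.7 to 98.2% of *Pygl*, *Pygb* and *Pygm*). In the tumors the mean share was 1.42% ± 2.18 (SD, n = 9) for *Pck1*, 0.231% ± 0.431 for *G6pc* (of *G6pc* and *G6pc3*), 0.286% ± 0.517 for *Gys2* and 13.7% ± 4.84 for *Pygl*. Tumor and pre-metastatic liver did not overlap for these 4 (exact two-sided rank-sum permutation test, *p* = 4.11e-05, adjusted 0.000154 over 15 tests). The test did not use the pairing of tumor and liver by mouse, so its *p* treats them as separate animals. For *Fbp1* the tumor share ran from 30.7 to 100% (mean 72% ± 26, exact *p* = 0.0028, adjusted 0.00466), where both *Fbp1* (0.638 RPKM) and *Fbp2* (0.122 RPKM) were low. The partners of the other families were higher in the tumors, with means of 25 against 0.837 RPKM for *Pck2*, 16.1 against 2.6 for *G6pc3*, 17.5 against 0.687 for *Gys1* and 29.6 against 2.52 for *Pygb*. The tumors with skeletal muscle transcripts, M4 and M7, had *Fbp1* shares of 36.1% and 50.1%, above the lowest, 30.7% in M1. M4 also had the lowest *Pygl* share, 5.01%. The part of muscle RNA in these shares was not tested.

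Between the livers only the share of *G6pc* passed. It was 77.1 to 88.9% in control liver (mean 82.2% ± 4.9, SD, n = 5) and 77.2 to 98.6% in pre-metastatic liver (91.8% ± 7.26, n = 9), a difference of 9.65 percentage points (exact two-sided rank-sum permutation *p* = 0.029, adjusted 0.0395). The 3 lowest pre-metastatic values were those of M1, M10 and M12 (77.2 to 85.7%), which lay within the controls. The adjusted exact *p* was 0.0503 to 0.0755 without C4, C5, C6 or C7. For the other 4 families the difference between the livers was at most 0.299 percentage points in size, with adjusted exact *p* of 0.3 to 0.797.

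**Figure D5:**
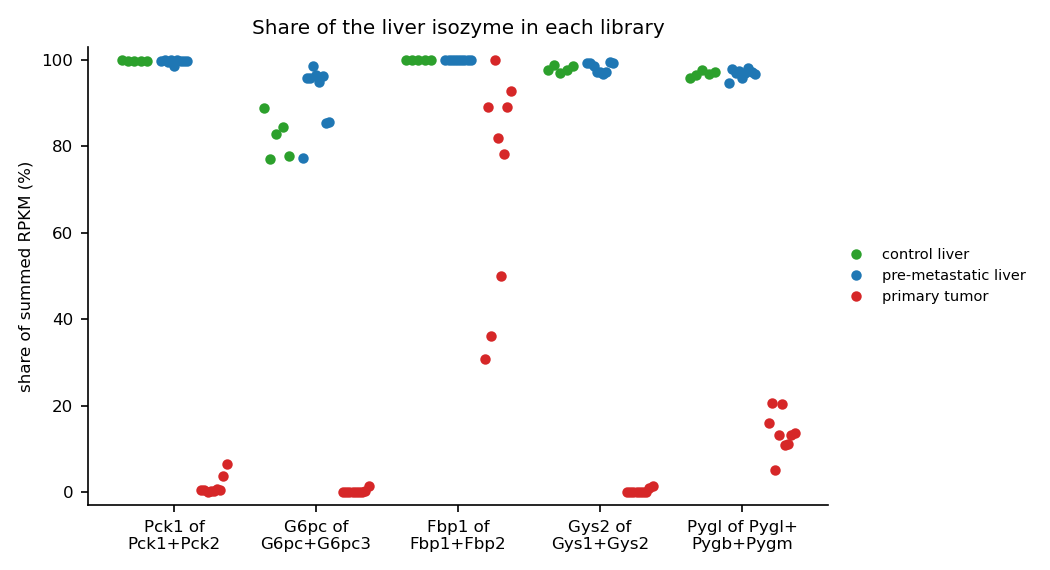
Share of the liver isozyme in the summed RPKM of its family (y axis, percent) in each library of control liver (green, n = 5), pre-metastatic liver (blue, n = 9) and primary tumor (red, n = 9). The liver form made 94.7% or more in every liver for 4 families and 77.1% or more for *G6pc*, and 20.5% or less in every tumor except for *Fbp1*.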

How the data were processed

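Poly(A) RNA of the 23 libraries was made into NEBNext Ultra libraries, a kit that does not mark strand, and sequenced by a service company. The table the authors deposited gives, for each gene and library, a raw count without normalization and an RPKM, the count divided by gene length and library total. Recomputing the authors' RPKM from their counts changed no value by more than 1.75e-06 of itself. The submitters' processing notes name HISAT2, HISAT, HTSeq 0.6.0 and mm10; the annotation and the strand setting of the counting are not given in the sources used here. The 48897 rows hold 48895 symbols, and 2 symbols on 2 rows each were summed. All 207 genes of the lists were found, 2 of them under an older symbol (*Trf* for *Tf*, and *Plin2*).

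Samples were grouped by GEO's labels. Counts were tested with edgeR 4.0.16 in R 4.3.3 (TMM scaling, quasi-likelihood test, two-sided, Benjamini-Hochberg over all genes tested, threshold 0.05), separately for the 14 livers, for tumors and pre-metastatic livers, and for tumors and control livers, keeping genes that reached 10 counts in 5, 9 and 5 libraries or more. The SE is the log2 fold change divided by the square root of the F statistic. Isozyme shares were compared by the exact two-sided rank-sum permutation test, without pairing by mouse, adjusted over 15 tests. DESeq2 1.42.0, limma 3.58.1, library totals, other count filters, single libraries left out, the early clock phase alone, phase as a covariate, a fit over all 23 libraries, and the mouse as a block were alternatives, and leaving out the tumors of M10 and M12 was added after the data had been seen. The edgeR fit was tested on simulated data, and the exact rank-sum test on a built case with a known *p*. Scores, shares and figures were made with Python 3.11.15, numpy 2.4.6, scipy 1.17.1, pandas 2.3.3 and matplotlib 3.10.9.

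The members, the gene lists and the clock phases were chosen with earlier results of these data known. Named are all 10 members, their isozyme partners, and up to 3 genes of each list and direction with the largest fold change among those past the threshold with no overlap between groups, with later choices marked; some results are not reported here. Genes whose pattern is most like a member's are not reported, since the livers fall into clock phases. The tumor and the liver of a number come from the same mouse: after subtracting group means, such pairs had a mean correlation of 0.0695 over 17827 genes (-0.0509 to 0.188), against -0.00894 for pairs from different mice. The 23 libraries come from 14 mice, those of 1 group from separate mice, and the closest pair within a group had a chi-square per degree of freedom of 49.3, so no library was a copy of another. Precision at low counts is limited by counting error, and 3 counts were taken as the floor.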

Additional observations from a re-analysis of the deposited data

Results flagged for a closer look

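In 5 of 45 groups 1 library lay far from the others, by a gap to its nearest neighbour that exceeded Dixon's 95% critical value as a share of the range, and chance flags about 1 group in 20. For *Pcx* in control liver the gap was 0.926 of the range, from C5 at 157 RPKM to the other 4 at 241 to 250. For *Gcgr* in pre-metastatic liver it was 0.529, with M6 lowest at 51.4 RPKM, the liver that also had the lowest *Pck1* (89.4 RPKM). M6 likewise had the lowest share of *Pck1* in *Pck1* and *Pck2*, 98.7%, with a gap of 0.767. The share of *G6pc* in *G6pc* and *G6pc3* was highest in the tumor of M12, 1.35% on 30 counts of *G6pc*, with a gap of 0.746, in the tumor with the most hepatocyte transcripts. For *Fbp1* in *Fbp1* and *Fbp2* the control liver C7 lay lowest at 99.9% with a gap of 0.854, a difference of less than 0.1 percentage points.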

How the results depend on the processing

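No setting moved the number of genes called in either direction together by more than 1.5 times, but library totals moved the higher and lower calls between tumor and own liver from 7800 and 7222 to 12222 and 3734, and against control liver from 8541 and 7355 to 12859 and 4130. In the livers 5270 genes were called (4271 to 5284 with single libraries left out), and the share that was higher went from 57.1% to 46.0% by library totals. With the mouse as a replicate block 14929 genes were called between tumor and own liver, against 15022 without it, and the block changed the call of none of the 10 genes. Of the named genes, *Prkacb*, lower in tumor than in own liver (log2 fold change -0.37, edgeR adjusted *p* = 0.000804), turned higher by library totals (0.81, edgeR adjusted *p* = 4.16e-07). Under that scaling the sign also changed, called or not, for 7 of 22 genes of glucagon and cAMP signalling (*Prkacb* included), 8 of 20 of insulin signalling and 6 of 20 regulators. In the livers *Foxo1* was -0.06 by library totals, -0.32 in the early phase and -0.10 with phase as a covariate, and *Pck1* was 0.12 with limma, none of which passed. With single libraries left out, *Pck1* in the livers ran from -0.24 to 0.67 (highest without C1), *Gys2* from -0.25 to 0.10 and *Foxo1* from -0.08 to 0.19. Of the shares compared between the livers, *Fbp1* differed by -0.00431 and *Gys2* by -0.429 percentage points in the early phase, and *Pygl* by -0.144 on counts not divided by length. With single libraries left out, the *G6pc* share differed by 8.38 to 11.5 percentage points, *Fbp1* by -0.00552 to 0.0158 and *Pygl* by -0.2 to 0.321. *Tat*, *Cps1* and *Hnf4a* did not pass in the livers in a fit over all 23 libraries (edgeR adjusted *p* 0.0621 to 0.476), and *Slc2a2* did not in that fit (0.155) or in 11 other settings (0.0539 to 0.109). The cause of these changes was not tested. Depth limits the tumor values of *G6pc*, *Gys2* and *Gcgr*, which rest on at most 4 counts in 7 of 9 tumors.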
